A study of Mus musculus with 4 samples.

Results

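Proximal tubule nuclei of mice injured with aristolochic acid I (AAI) fell into 2 injured clusters, InjuredPT-A and InjuredPT-B, and their expression was compared directly within each AAI mouse. Members were genes whose mean normalized expression differed between the clusters by at least 0.2 on the log2(value + 1) scale, in the same direction in both AAI mice. Of 19609 genes, 4977 had a value of at least 0.5 in at least 1 of the clusters in each mouse, and 2851 of these were members. InjuredPT-A was the higher cluster for 1522 of them (30.6% of the genes tested) and InjuredPT-B for 1329 (26.7%). Which direction held more genes depended on the setting, since InjuredPT-B had the larger count with each mouse centred on its median (1338 against 1482), with a minimum value of 2 (353 against 551) and with a limit of 1 (72 against 100). The former were mostly short genes that stood above normal proximal tubule in InjuredPT-A, led by an antisense RNA and by Polr2a. The latter were more often long genes that stood below normal proximal tubule in InjuredPT-A, most tubule identity transcription factors among them, with a smaller set above normal in InjuredPT-B that included the cytokine gene Il34.

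The proximal tubule reabsorbs most of the filtered solute and takes up organic anions such as AAI, whose activated form binds DNA as bulky adducts. Adducts on a transcribed strand can stall RNA polymerase II. Injured tubule cells lose transporters and other features of the mature epithelium, a change called dedifferentiation, and can make cytokines and matrix proteins.

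Nuclei of kidney cortex were sequenced from 4 male mice of mixed strain, 1 for each condition, all fed doxycycline at 200 mg/kg diet for 1 week before injury. Control mice carried the TRE-hKLF6 transgene without a driver, and hKLF6OE mice carried CAG-rtTA as well, which drives human KLF6 in the whole body and not in the tubule alone. AAI mice received a single injection of 2 mg/kg and were killed 24 hours later, and the uninjured mice have the treatment label none. A level is the mean over the nuclei of 1 cluster in 1 mouse, scaled so that all genes sum to 10000. Where 2 pairs of levels follow a gene, the first pair is InjuredPT-A and InjuredPT-B of the control AAI mouse and the second the same of the hKLF6OE AAI mouse, and differences (InjuredPT-A minus InjuredPT-B) and normal levels have the mice in that order. Normal PT stands for the 5 clusters of uninjured-type proximal tubule, averaged within each mouse with equal weight. InjuredPT-A is cluster 6 and InjuredPT-B is cluster 12 of 23. The name of cluster 12 rests on its place in the order of clusters and on its genes, since its marker list was not used here. The authors describe InjuredPT-B by CXCL1 and by p53 signaling raised against normal proximal tubule clusters. Against normal PT, 13 of 19 p53 targets stood above in both mice in cluster 12 and 17 in cluster 6. Cxcl1 was above normal PT in both clusters. Compared directly, neither set cluster 12 above cluster 6 in both mice. Cxcl1 was higher in cluster 6 in the control AAI mouse (4.80 against 3.75). Of the 19 p53 targets 13 were higher in cluster 6, against 30.6% of all genes tested, and 1 in cluster 12. Most of the targets, 14 of 19, are short genes, which were more often higher in cluster 6. The direct comparison is not one the authors describe, so it does not decide the name, which remains uncertain. Each condition had 1 mouse and the clusters had been formed from the same expression values, so no test was made and every value describes these mice.

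Levels of marker lists placed both clusters in the proximal tubule. The summed level of 13 proximal tubule markers was 58.9 in InjuredPT-A and 131 in InjuredPT-B of the control AAI mouse, and 72.9 and 90.2 in the hKLF6OE AAI mouse, against 225 and 191 in normal PT. The 11 injured tubule markers summed to 44.7 and 24.1, and to 40.3 and 26.9, against 8.22 and 8.40. Polr2a and Klf6 are in this list and made up most of the InjuredPT-A sum in both mice. Without them the sum was higher in InjuredPT-B in both mice. Only 4 of the 11 were higher in InjuredPT-A in both mice, and Havcr1, Krt20, Plin2 and Il34 were higher in InjuredPT-B. Il34 was higher in InjuredPT-B than in any other cluster in both AAI mice. InjuredPT-A held more signal of other kinds as well, and its part in the differences was not tested. Thick ascending limb markers summed to 14 and 8.66, and to 18.5 and 8.97, where their own cluster reached 366. Of these 7 markers 5 were higher in InjuredPT-A in both mice, and only Cldn16 was at or below 0.1 in every injured column. Distal tubule markers were likewise higher in InjuredPT-A (8.65 and 5.29, and 14.1 and 6.18). For 12 macrophage markers the sums were 0.953 and 0.646, and 0.839 and 0.289, with 7 of the 12, C1qa and Ptprc among them, at or below 0.1. The mitochondrially encoded share was 1.84% in InjuredPT-A and 1.11% in InjuredPT-B of the control AAI mouse and 2.34% and 0.912% in the hKLF6OE AAI mouse.

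The direction of the difference was largely shared by the mice. It had the same sign in 4270 of the 4977 genes (85.8%). In the control AAI mouse alone, 1935 (38.9%) and 1560 (31.3%) genes passed 0.2 toward InjuredPT-A and InjuredPT-B, against 1874 (37.7%) and 1746 (35.1%) in the hKLF6OE AAI mouse alone. Opposite differences of at least 0.2 were found in 53 (1.06%). Across these genes the differences in the 2 mice had a Pearson correlation of 0.868, where genes are not independent replicates and each mouse supplied all of its values from 1 library. The median size of the difference between the clusters was 0.34 and 0.36 on the log2 scale in the control and hKLF6OE AAI mouse, while the same cluster differed between the mice by a median of 0.13 in InjuredPT-A and 0.13 in InjuredPT-B. Among the members, 2493 (87.4%) had a gap between the mice smaller than the smaller of their 2 differences. Members were chosen for differing in the same direction in both mice, so this share is no separate check of that agreement. Nuclei of all mice were clustered together on the same expression values. The shared sign, the correlation and the medians above are therefore partly set by that clustering and are no independent check of the clusters. With a difference of at least 0.5 the counts were 538 (10.8%) and 525 (10.5%), and with at least 1 they were 72 (1.45%) and 100 (2.01%).

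**Figure D1:**
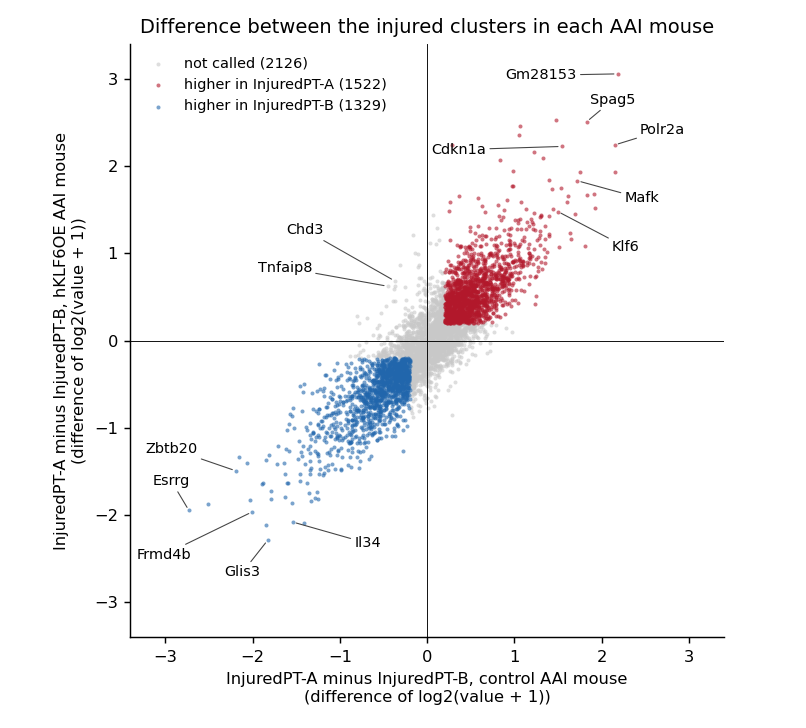
Difference of log2(value + 1), InjuredPT-A minus InjuredPT-B, in the control AAI mouse (x axis) and the hKLF6OE AAI mouse (y axis), 1 point per gene of the 4977 tested. The 1522 genes called higher in InjuredPT-A (red) and the 1329 called higher in InjuredPT-B (blue) lie along the diagonal, with Gm28153, Polr2a and Spag5 at 1 end and Esrrg, Frmd4b and Glis3 at the other.

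Polr2a, which encodes RPB1, the catalytic subunit of RNA polymerase II, ranked second toward InjuredPT-A by the smaller of its differences in the 2 mice. Its level was 24.3 in InjuredPT-A and 4.70 in InjuredPT-B of the control AAI mouse and 23.3 and 4.14 in the hKLF6OE AAI mouse, with 1.83 and 1.71 in normal PT. InjuredPT-A was thus 5.17-fold and 5.64-fold above InjuredPT-B, which itself stood above normal PT in both mice. Klf6, a zinc finger transcription factor gene induced by injury, measured 7.46 and 2.00 in the control AAI mouse and 6.68 and 1.75 in the hKLF6OE AAI mouse, with 0.406 and 0.327 in normal PT (differences 1.5 and 1.48). For both genes InjuredPT-A was the highest of the 23 clusters in both AAI mice, and both levels of InjuredPT-A lay above both of InjuredPT-B.

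Genes that act on the transcript stood beside them. Pcf11, a factor of cleavage and of termination by RNA polymerase II, was at 8.52 and 2.10, and at 7 and 1.54 (1.62 and 1.66). Tra2a, a regulator of splicing, was at 20.7 and 4.71, and at 16 and 4.93 (1.93 and 1.52). Mafk and Mafg encode small Maf proteins, which pair with other basic leucine zipper factors such as NRF2. Mafk had 3.48 in InjuredPT-A and 0.357 in InjuredPT-B of the control AAI mouse, and 3.24 and 0.191 in the other, with 0.174 and 0.143 in normal PT. Mafg had 19 and 4.60, and 15.6 and 4.21. These genes were ranked by a difference of the same direction in both mice, so their shared order is no separate result.

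Cell cycle and p53 genes were among the 20 highest too. Cdkn1a, the p53 target that encodes the cyclin-dependent kinase inhibitor p21, had 4.83 and 1.00 in the control AAI mouse and 9.31 and 1.20 in the hKLF6OE AAI mouse (1.54 and 2.23). Spag5, which encodes a protein of the mitotic spindle, had 10.6 and 2.27, and 23.5 and 3.30 (1.83 and 2.51). Mad1l1, a spindle checkpoint gene, had 7.04 and 1.89, and 19 and 2.48 (1.48 and 2.53). In these 3 genes InjuredPT-A was higher in the hKLF6OE AAI mouse than in the control AAI mouse, by more than InjuredPT-B was. Rcc1, the exchange factor of the GTPase Ran, had 5.42 and 1.39, and 5.31 and 0.894. Only Spag5 of 25 G2/M genes passed the filter, and of 22 S phase genes only Mcm7 and Slbp did, both higher in InjuredPT-A, so cycling was not read from them.

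Noncoding and poorly known transcripts filled much of the rest. Gm28153, an antisense RNA that overlaps Crispld1, ranked first, with 10.8 and 1.60 in the control AAI mouse and 37.1 and 3.58 in the hKLF6OE AAI mouse (2.18 and 3.06). Gm27003, antisense to Gabpb1, had 7.80 and 0.971, and 4.90 and 0.547. Snhg20, which hosts small nucleolar RNA, had 3.82 and 0.769, and 3.39 and 0.544. Gt(ROSA)26Sor, the RNA of the Rosa26 locus, had 4.01 and 0.546, and 3.38 and 0.6, and overlaps Thumpd3 on the other strand. The strand setting of the counting is not given in the sources used here, so reads of these genes and of their partners cannot be told apart. By biotype, 36 of the 57 antisense genes tested were higher in InjuredPT-A and 10 in InjuredPT-B, with medians of 0.49 and 0.50, against 1442 and 1293 of 4820 protein-coding genes. The antisense genes were shorter (median span 14.1 kb against 39.6 kb), and their 63.2% stood near the 56.6% of all short genes.

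The genes highest in InjuredPT-B were of another kind. Esrrg encodes estrogen-related receptor gamma, a nuclear receptor of mitochondrial and transport genes. It had 3.17 in InjuredPT-A and 26.7 in InjuredPT-B of the control AAI mouse and 5.28 and 23.2 in the hKLF6OE AAI mouse, with 40.2 and 40.9 in normal PT (differences -2.73 and -1.95). Frmd4b, a FERM domain gene, ranked first, with 2.16 and 11.7, and 2.28 and 11.8, against 17.1 and 16.3 in normal PT. In InjuredPT-A, Esrrg was the lowest or the second lowest of the 23 clusters. In InjuredPT-B both genes lay between InjuredPT-A and normal PT.

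Genes of uptake and transport followed. Slc13a1, the sodium sulfate cotransporter of the brush border, had 4.80 and 32.0, and 6 and 24.6, against 26.7 and 24.7 in normal PT. Dab2, the adaptor that links megalin to clathrin, had 7.98 and 32.1, and 6.23 and 21.4. Igf1r, the receptor of insulin-like growth factor 1, had 2.62 and 12.4, and 3.51 and 13. Among regulators, Glis3, a Kruppel-like zinc finger gene, had 3.74 and 15.8, and 3.51 and 21. Zbtb20, a transcriptional repressor gene, had 13.5 and 65.2, and 16 and 46.9. Of genes of cell shape, Fmn1, a formin of actin assembly, had 1.58 and 8.30, and 1.66 and 10.5. Pkhd1, which encodes the ciliary protein fibrocystin, had 3.01 and 9.97, and 4.55 and 15.9.

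Il34 was the exception among the 20. It encodes a ligand of the colony-stimulating factor 1 receptor of macrophages, and it had 1.85 in InjuredPT-A and 7.29 in InjuredPT-B of the control AAI mouse and 1.11 and 7.93 in the hKLF6OE AAI mouse. Normal PT had 2.17 and 2.12, so that InjuredPT-B was above normal (1.39 and 1.52) while InjuredPT-A was within 0.2 of it in the control AAI mouse and below it in the hKLF6OE AAI mouse (-0.15 and -0.56). Syne2, a nesprin gene of the nuclear envelope, was the only other one of the 20 with InjuredPT-B above normal PT in both mice, and by less (6.07 against 5.07, and 6.86 against 5.33).

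**Figure D2:**
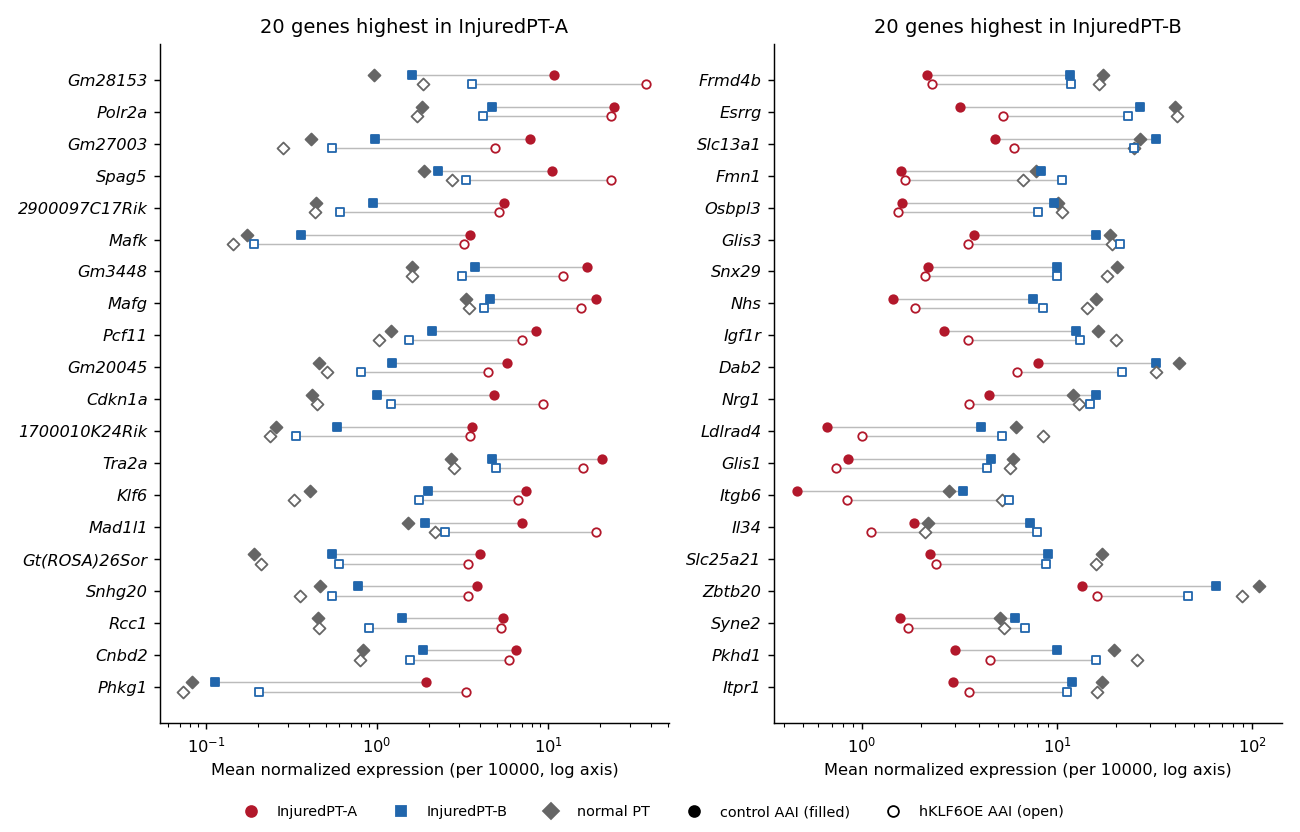
Mean normalized expression per 10000 (log axis) of the 20 genes highest in InjuredPT-A (left) and in InjuredPT-B (right), in InjuredPT-A (red circles), InjuredPT-B (blue squares) and normal PT (grey diamonds), with filled symbols for the control AAI mouse and open symbols for the hKLF6OE AAI mouse. On the left InjuredPT-A lies above both other levels in every gene, and on the right InjuredPT-A lies below InjuredPT-B, which is below normal PT in 12 genes and above it in Il34 and Syne2.

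Against normal PT, the members higher in InjuredPT-A were mostly genes raised in InjuredPT-A, since 1472 of the 1522 (96.7%) stood at least 0.2 above normal PT there in both mice. InjuredPT-B was within 0.2 of normal PT for 794 of them (52.2%) and above it for 309 (20.3%). Over all genes tested, InjuredPT-A was above normal PT in 43.7%, while InjuredPT-B was above it in 20.9%, near it in 42% and below it in 8.74%. The reverse order was rare. In 6 genes InjuredPT-A was within 0.2 of normal PT and InjuredPT-B below it, among them Napsa, the aspartic protease gene of proximal tubule, with 6.02 and 2.83, and 5.08 and 2.18, against 6.16 and 4.53 in normal PT. These comparisons use the same injured columns as the choice of the members, and the counts are descriptions.

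The members higher in InjuredPT-B were mostly genes lowered in InjuredPT-A. InjuredPT-A was below normal PT for 999 of the 1329 (75.2%, against 23.9% of all genes tested). InjuredPT-B was within 0.2 of normal PT for 465 (35.0%), below it for 277 (20.8%) and above it for 228 (17.2%). The root mean square difference from normal PT over all genes tested was 0.69 and 0.66 in InjuredPT-A and 0.30 and 0.33 in InjuredPT-B, in the control and hKLF6OE AAI mouse. InjuredPT-B was thus nearer to normal PT by this measure in both.

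The 228 genes above normal PT in InjuredPT-B were a smaller share of their set (17.2%) than such genes were of all tested (20.9%). Their number was 362 and 612 with the control or the hKLF6OE AAI mouse alone, 466 with a pseudocount of 0.1 and 24 with a limit of 0.5. Bmp6, Abcb1b and Pvt1 were among them. Bmp6, a ligand of the bone morphogenetic protein family, had 2.06 and 5.99, and 1.98 and 7.65, with 3.29 and 2.99 in normal PT. It was highest of all clusters in InjuredPT-B in both AAI mice. Abcb1b, a gene of the efflux pump P-glycoprotein, had 1.68 and 3.87, and 0.925 and 2.88, with 0.846 and 0.719 in normal PT. Pvt1, a long noncoding RNA next to Myc, had 1.15 and 4.12, and 0.982 and 5.97. In Bmp6 and Pvt1 the level of InjuredPT-A was below that of normal PT in both mice. In Abcb1b it was above normal PT in the control AAI mouse (0.54) and within 0.2 of it in the hKLF6OE AAI mouse (0.16).

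**Figure D3:**
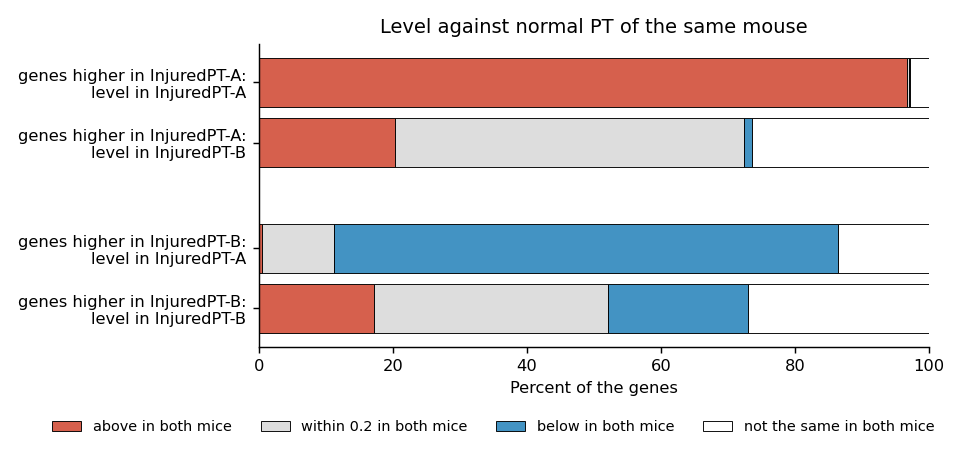
Percent of the 1522 genes higher in InjuredPT-A (upper bars) and of the 1329 higher in InjuredPT-B (lower bars) whose level in each injured cluster was above, within 0.2 of, or below normal PT of the same mouse on the log2(value + 1) scale in both AAI mice. The level in InjuredPT-A was above normal PT for 96.7% of the former and below it for 75.2% of the latter, while in InjuredPT-B the gray segment, within 0.2 of normal PT, is the widest in both sets.

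Members of the 2 directions differed in genomic span, the length from the start to the end of the gene in the annotation. The median span was 16.2 kb for genes higher in InjuredPT-A and 110 kb for those higher in InjuredPT-B, against 39.2 kb over all genes tested. Of 2022 short genes (under 30 kb), 1145 (56.6%) were higher in InjuredPT-A and 84 (4.15%) in InjuredPT-B. Of 1000 long genes (over 100 kb), 47 (4.70%) were higher in InjuredPT-A and 735 (73.5%) in InjuredPT-B. The 1915 genes between these lengths were divided, with 319 (16.7%) and 498 (26%). Short genes made up 75.8% of the genes higher in InjuredPT-A that have a span, and long genes 55.8% of those higher in InjuredPT-B.

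The division ran through all lengths. Median differences fell from 0.41 and 0.56 in the shortest decile (median 4.79 kb) to -0.54 and -0.63 in the longest (median 242 kb), in the control and hKLF6OE AAI mouse. Against normal PT, InjuredPT-A followed the same course, from 0.51 and 0.61 to -0.75 and -0.76. InjuredPT-B stayed between 0.05 and 0.16 in the 9 shorter deciles of both mice and was at -0.17 and -0.08 in the longest. Among the 20 genes highest in InjuredPT-A, 15 were short and 1, Mad1l1 with 313 kb, was long. Among the 20 highest in InjuredPT-B, 18 were long and none short, from Il34 with 64.1 kb to Nrg1, a ligand of the ErbB receptors, with 1069 kb.

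**Figure D4:**
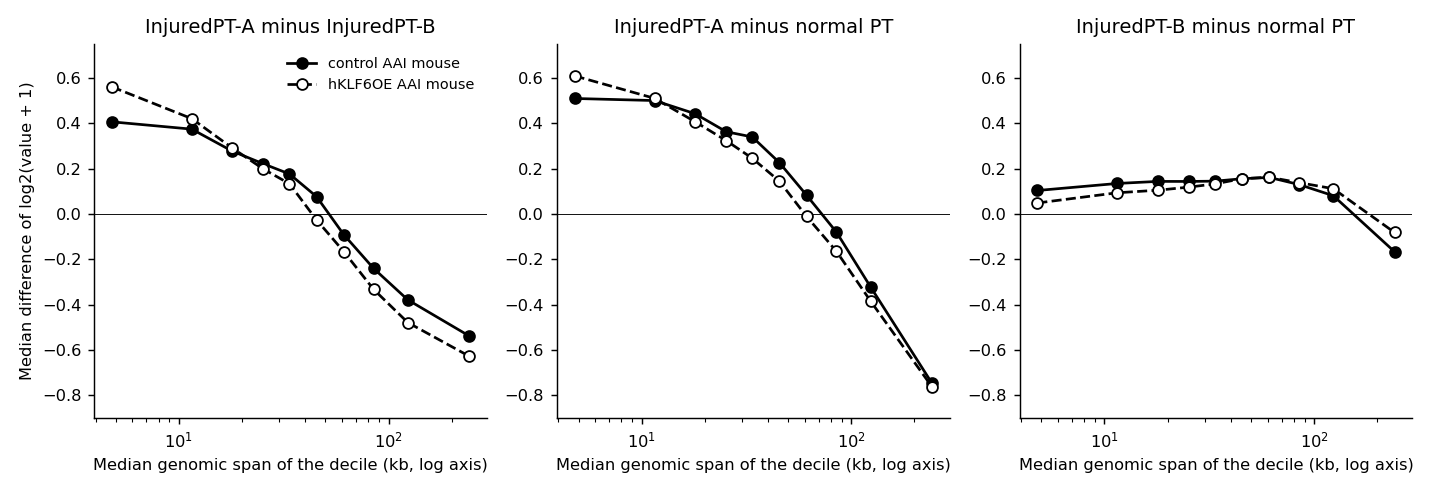
Median difference of log2(value + 1) in deciles of genomic span (x axis, median span of the decile in kb, log axis) for InjuredPT-A minus InjuredPT-B (left), InjuredPT-A minus normal PT (middle) and InjuredPT-B minus normal PT (right), with the control AAI mouse as filled and the hKLF6OE AAI mouse as open circles. The left and middle curves fall with span from above 0 to below it, and the right curve stays between 0.05 and 0.16 up to the last decile.

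The same clusters of the uninjured mice held a weaker form of this order. Short genes had a median difference of 0.07 and 0.16 in the control and hKLF6OE mouse without AAI, genes of medium span -0.11 and -0.13, and long genes -0.31 and -0.40. These columns were sparse, with 62.6% and 40.8% of all genes at 0 in cluster 6 and 51.3% and 55.7% in cluster 12. Their mitochondrially encoded share was 6.22% and 7.69% in cluster 6, and 2.50% and 2.86% in cluster 12. In the AAI mice, leaving out the mitochondrially encoded genes gave a short share of 75.4% and a long share of 55.9%, close to the values with them. Without AAI, Polr2a was at 1.90 in cluster 6 and 1.16 in cluster 12 of the control mouse and at 0.817 and 1.60 in the hKLF6OE mouse, and Klf6 at 0.358 and 0.404, and 0.250 and 0.153. In both genes the direction was not the same in the 2 uninjured mice.

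Sequences before the transcription start are shown for 4 of the genes highest in InjuredPT-A and 2 of those highest in InjuredPT-B, so that promoters of genes with opposite order can be compared. They run over the 250 bases before the start in RefSeq (GRCm38.p6): chr11:69758634-69758883 (minus strand), chr13:5861239-5861488 (plus strand), chr7:92669913-92670162 (minus strand), chr6:49264053-49264302 (minus strand), chr6:50456171-50456420 (minus strand) and chr7:67952007-67952256 (plus strand), each in the direction of the gene. Osbpl3, an oxysterol-binding protein gene, had 1.61 in InjuredPT-A and 9.65 in InjuredPT-B of the control AAI mouse and 1.53 and 7.97 in the hKLF6OE AAI mouse. Capitals mark 6 motifs on either strand, which may overlap: the AP-1 site TGANTCA, the cyclic AMP response element TGACGTCA, the GC box GGGCGG, the CACCC-type box CCNCNCCC, CCAAT and TATAAA.
Polr2a: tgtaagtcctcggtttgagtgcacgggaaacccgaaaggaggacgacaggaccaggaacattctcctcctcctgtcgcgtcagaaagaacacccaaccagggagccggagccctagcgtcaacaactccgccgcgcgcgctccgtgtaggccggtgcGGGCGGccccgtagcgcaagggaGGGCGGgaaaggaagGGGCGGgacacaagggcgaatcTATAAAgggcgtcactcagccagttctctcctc
Klf6: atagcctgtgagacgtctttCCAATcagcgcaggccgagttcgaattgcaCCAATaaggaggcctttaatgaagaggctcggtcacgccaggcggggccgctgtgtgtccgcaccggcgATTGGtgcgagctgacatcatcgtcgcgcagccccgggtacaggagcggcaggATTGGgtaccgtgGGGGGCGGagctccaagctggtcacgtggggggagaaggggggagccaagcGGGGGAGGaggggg
Pcf11: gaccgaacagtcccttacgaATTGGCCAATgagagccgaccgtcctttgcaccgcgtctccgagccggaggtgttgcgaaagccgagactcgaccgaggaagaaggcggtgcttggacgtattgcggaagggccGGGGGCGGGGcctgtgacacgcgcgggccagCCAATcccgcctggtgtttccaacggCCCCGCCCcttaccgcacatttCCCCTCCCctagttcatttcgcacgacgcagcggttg
Tra2a: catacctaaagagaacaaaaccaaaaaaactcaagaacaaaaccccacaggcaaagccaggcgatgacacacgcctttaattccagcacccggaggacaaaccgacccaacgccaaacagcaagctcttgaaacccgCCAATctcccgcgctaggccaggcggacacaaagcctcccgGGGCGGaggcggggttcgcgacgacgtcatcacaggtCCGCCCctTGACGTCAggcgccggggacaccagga
Osbpl3: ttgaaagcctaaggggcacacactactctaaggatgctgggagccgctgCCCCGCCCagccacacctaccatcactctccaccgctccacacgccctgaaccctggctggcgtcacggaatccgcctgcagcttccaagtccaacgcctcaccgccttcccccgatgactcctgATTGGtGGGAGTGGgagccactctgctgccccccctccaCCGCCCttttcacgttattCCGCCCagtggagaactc
Igf1r: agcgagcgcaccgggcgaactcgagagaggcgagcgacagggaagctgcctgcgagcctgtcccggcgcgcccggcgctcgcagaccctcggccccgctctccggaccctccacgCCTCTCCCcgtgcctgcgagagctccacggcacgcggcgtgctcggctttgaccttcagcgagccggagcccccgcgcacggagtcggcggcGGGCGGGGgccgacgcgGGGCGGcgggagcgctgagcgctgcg

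GC boxes stood in all 6 sequences, on either side of the comparison. Polr2a had 3 of them and 1 TATAAA, Klf6 had 4 CCAAT boxes, and Tra2a had the single cyclic AMP response element among the 6. Promoters were matched for 1179 of the genes higher in InjuredPT-A, 1052 of those higher in InjuredPT-B and 3918 of all genes tested. GC boxes were in 61.7% and 65.5% of the 2 sets and in 65.1% of all, and CACCC-type boxes in 64.1%, 69.9% and 68.0%. CCAAT was in 37.2%, 32.6% and 35.1%, TATAAA in 7.80%, 5.04% and 5.74%, and the AP-1 site in 3.99%, 3.42% and 3.45%. The cyclic AMP response element was in 4.83% (57 promoters), 2.00% (21 promoters) and 3.04% (119 promoters). Median GC content was 60.8%, 64.0% and 62.0%. A match gives the letters alone and does not show a bound site.

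Gene lists are described by the members that passed the filter, with their count in each direction and their median beside 0.07 and 0.02 for all genes tested. Since length and direction moved together, medians of length classes are set beside some lists, 0.33 and 0.37 for short and -0.46 and -0.54 for long genes. The filter left 5 of 13 subunits of RNA polymerase II, and InjuredPT-A was the higher cluster for 3 of them, with Polr2a far ahead of the other two called. Polr2l, a small shared subunit, had 0.701 and 0.0942, and 0.817 and 0.108 (0.64 and 0.71), and Polr2b, the second largest subunit, had 0.506 and 0.238, and 1.28 and 0.327 (0.28 and 0.78). Polr2l and Polr2b reached the minimum of 0.5 only in InjuredPT-A, so their passing and their direction are not separate. Elongation and termination factors were divided, with 11 of 25 higher in InjuredPT-A and 3 in InjuredPT-B. Hexim1, an inhibitor of the elongation kinase P-TEFb, had 1.84 and 0.226, and 2.50 and 0.438. Aff1, a scaffold of the super elongation complex, and Xrn2, the termination exonuclease, were on the other side.

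Most RNA processing genes that were called were higher in InjuredPT-A, where 30.6% of all genes tested and 56.6% of short genes were. Of short members, 8 of 13 Hnrnp and 8 of 13 spliceosome genes were higher there, near the share of short genes. For short Srsf genes and kinases it was 11 of 15. Of medium span, 3 of 5 Hnrnp and 7 of 14 spliceosome genes were, against 16.7% of all such genes. Srsf genes and their kinases had 12 of 18 higher in InjuredPT-A and 1, the kinase gene Srpk2, in InjuredPT-B, with medians of 0.54 and 0.48. The 15 short ones among them had 0.57 and 0.63. Srsf5 measured 7.91 and 3.22, and 8.43 and 4.07. Hnrnp genes had 11 of 18 higher in InjuredPT-A and 0 in InjuredPT-B (0.34 and 0.50), with 0.31 and 0.52 for the 13 short ones, close to all short genes in the control AAI mouse. Hnrnpa3 measured 6.85 and 2.36, and 6.16 and 1.61. Spliceosome subunits had 15 and 2 of 27 (0.38 and 0.34), where the 14 of medium span had 0.33 and 0.20 against -0.03 and -0.11 for all genes of that span. Ddx5, an RNA helicase gene, was at 17 and 7.21, and 27.2 and 8.91, while Luc7l2 and Rbm25, both splicing factor genes, were higher in InjuredPT-B.

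Genes of protein synthesis and folding followed. Translation factors had 25 of 35 higher in InjuredPT-A and 2 in InjuredPT-B (0.54 and 0.54), and their 26 short members had 0.62 and 0.64, above their length class. Eif3a, the largest subunit of initiation factor 3, had 4.48 and 1.56, and 4.05 and 1.69. Cytosolic ribosomal protein genes had 38 of 47 and 0 (0.34 and 0.51), close to the 0.33 and 0.37 of short genes in the control AAI mouse. Heat shock proteins and co-chaperones had 13 and 1 of 18 (0.35 and 0.49), with Dnajb4 at 2.87 and 1.01, and 3.03 and 0.882. Proteasome subunits had 12 and 2 of 22 (0.24 and 0.26), chaperonin CCT subunits 3 and 0 of 5, and ubiquitin and ubiquitin ligase genes 2 and 2 of 8. Autophagy genes had 11 and 2 of 24 (0.22 and 0.35), where Vmp1, a gene of autophagosome formation, had 15.9 and 6.97, and 19.5 and 8.16, and the receptor gene Sqstm1 was on the other side with 2.63 and 4.47, and 1.71 and 2.86. Of 11 genes of the ATF4 and unfolded protein response 5 were higher in InjuredPT-A and 1 in InjuredPT-B, and Atf4 itself had 3.72 and 1.03, and 7.62 and 0.932. Among short members, 8 of 14 autophagy, 5 of 9 ATF4 and 3 of 5 CCT genes were higher in InjuredPT-A. These stood near the 56.6% of all short genes. For proteasome subunits it was 10 of 15 and for heat shock genes 10 of 14.

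AP-1 and immediate early genes had 14 of 19 higher in InjuredPT-A and 1, Klf9, in InjuredPT-B, with medians of 0.54 and 0.90. All 19 were short, and both medians were above those of short genes. Jun, Egr1, Ier2 and Btg2 were not called, with Jun at -0.14 and 1.01 and Egr1 at -0.36 and 0.62. Of p53 targets 13 of 19 were higher in InjuredPT-A and 1 in InjuredPT-B (0.49 and 0.48). Among the 14 short ones 10 were higher in InjuredPT-A, where 56.6% of all short genes were. Their medians were 0.66 and 0.56, against 0.33 and 0.37 for all short genes. Of 5 targets of medium span 3 were higher in InjuredPT-A, where 16.7% of such genes were. Trp53inp1, a proapoptotic p53 target, had 14.9 and 5.25, and 11.13 and 5.25, and Ccng1, cyclin G1, had 6.07 and 2.41, and 5.47 and 2.41. Pmaip1, which encodes the BH3-only protein NOXA, had 1.91 and 0.362, and 1.88 and 0.538. Mdm2, the ubiquitin ligase gene that restrains p53, was not called, with opposite signs in the mice, at 9.32 and 8.18, and 6.77 and 8.79 (0.17 and -0.33). Gdf15, a secreted stress cytokine gene, was higher in InjuredPT-B (2.00 and 3.39, and 1.45 and 2.07). Cdkn1a and Mdm2, targets of the same factor, thus did not follow each other across the clusters.

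Repair and cell death genes were divided. Of 12 genes of nucleotide excision repair and adduct bypass, 4 were higher in InjuredPT-A and 3 in InjuredPT-B. Polk, a bypass polymerase gene, had 3.68 and 2.25, and 4.05 and 2.74. Rev1 and Rev3l, also genes of bypass, had the other, with 1.74 and 2.95, and 2.35 and 3.92 for Rev1. Of 11 apoptosis regulators, 3 were higher in InjuredPT-A, with Apaf1 and the caspase-8 inhibitor gene Cflar beside Pmaip1, and 2 in InjuredPT-B, Ripk1 and Bcl2l1. Bcl2l1, which encodes the survival protein BCL-XL, had 5.67 and 7.06, and 3.62 and 10.1 (-0.27 and -1.27).

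Energy metabolism lists are set beside the 56.6% of all short genes that were higher in InjuredPT-A. Nuclear genes of oxidative phosphorylation had 34 of 53 higher in InjuredPT-A and 0 in InjuredPT-B, with medians of 0.30 and 0.56, and 33 of their 50 short members were higher there, with medians of 0.30 and 0.59 against 0.33 and 0.37 for all short genes. All 11 mitochondrially encoded genes that passed were higher in InjuredPT-A (0.62 and 1.17), mt-Co1 with 46.9 and 26.1, and 74.9 and 27.2. Their share of each column is given above. Glycolysis genes had 7 and 0 of 12 (0.27 and 0.51). Fatty acid oxidation genes were even, with 6 and 6 of 28, and with 6 of 13 short members higher in InjuredPT-A. Pex11a, a gene of peroxisome division, had 1.93 and 0.607, and 2.91 and 0.468, while Ppargc1a, the coactivator gene of mitochondrial biogenesis, had 1.02 and 1.87, and 1.13 and 1.66. Branched-chain amino acid catabolism had 3 and 3 of 17 (3 of 9 short ones higher in InjuredPT-A), and lipid droplet and synthesis genes 1 and 2 of 8. Glutathione and NRF2 target genes had 9 and 4 of 24, with the ferritin genes Fth1 and Ftl1 higher in InjuredPT-A and the glutathione synthesis genes Gclc and Gss higher in InjuredPT-B.

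**Figure D5:**
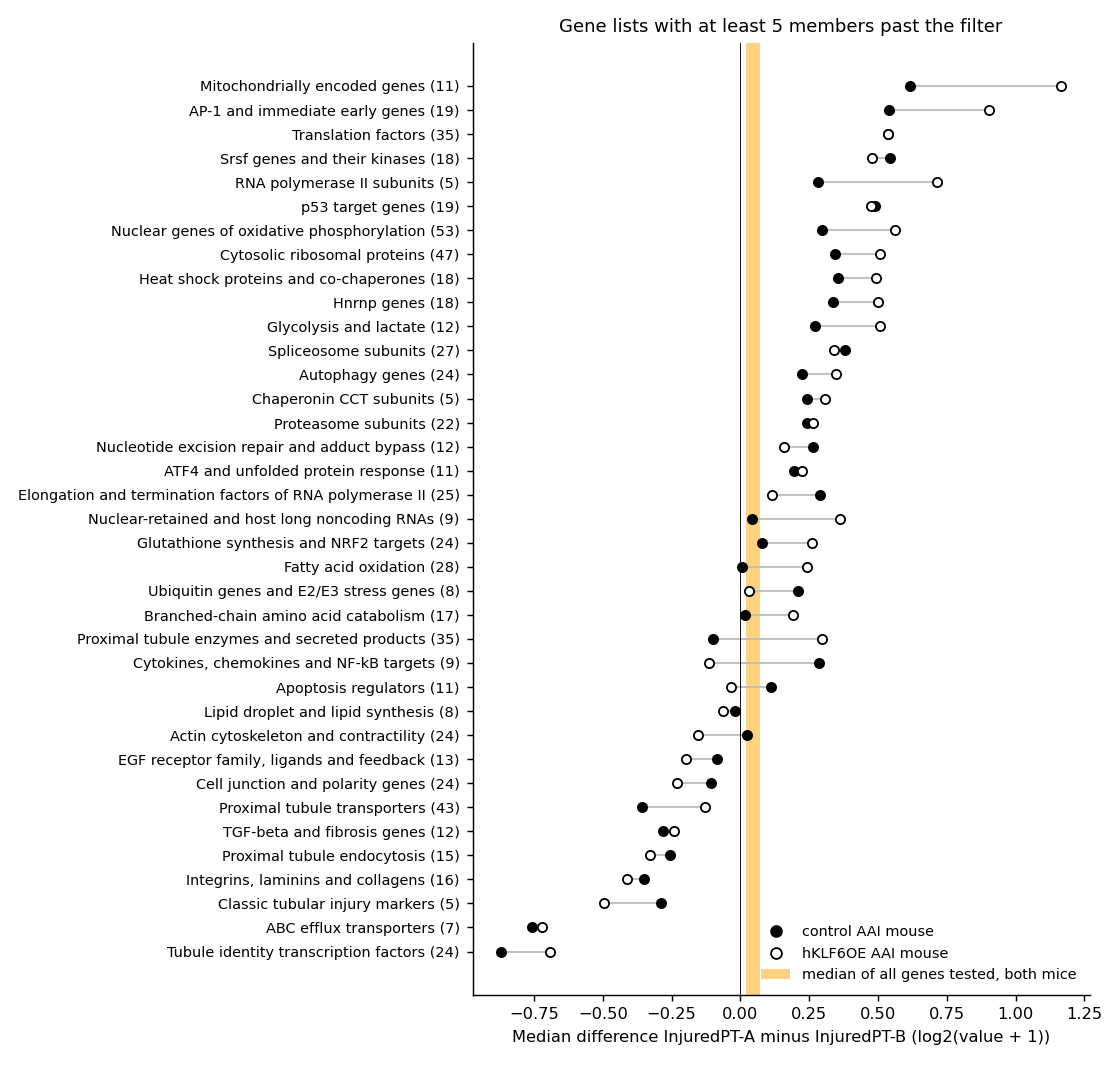
Median difference InjuredPT-A minus InjuredPT-B (log2(value + 1)) of each gene list with at least 5 members past the filter, number of members in brackets, in the control AAI mouse (filled) and the hKLF6OE AAI mouse (open), with the medians of all genes tested as the yellow band. Mitochondrially encoded genes, AP-1 genes and translation factors lie at the top, and tubule identity transcription factors and ABC efflux transporters at the bottom.

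Tubule identity transcription factors were mostly higher in InjuredPT-B. Of 24 that passed, 20 were higher in InjuredPT-B and 1, Maf, in InjuredPT-A (4.32 and 3.33, and 5.21 and 3.59), with medians of -0.87 and -0.69. The 14 long members were all higher in InjuredPT-B, at -0.99 and -0.87 where long genes had -0.46 and -0.54, and so were 6 of the 8 of medium span, at -0.75 and -0.67 where such genes had -0.03 and -0.11. Nfia, a nuclear factor I gene, had 3.59 and 11.8, and 4.01 and 11.8. The list also holds Ghr, the growth hormone receptor and not a transcription factor, with 9.72 and 46.8, and 12.8 and 33.8. Hnf4a, the main regulator of proximal tubule identity, was not called (-0.40 and 0.09).

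Transporters had a smaller share higher in InjuredPT-B, yet leaned to it beside genes of their own length. Of 18 short ones 4 were higher in each cluster, where 56.6% of short genes were higher in InjuredPT-A and 4.15% in InjuredPT-B. Their medians were -0.20 and 0.08, against 0.33 and 0.37 for all short genes. Of 22 of medium span 11 were higher in InjuredPT-B, against 26% of such genes, and so were all 3 long ones. Of 43 proximal tubule transporters 18 were higher in InjuredPT-B and 5 in InjuredPT-A (-0.36 and -0.13), with medians against normal PT of -0.80 and -0.65 in InjuredPT-A and -0.44 and -0.56 in InjuredPT-B. Abcc2, an apical efflux pump of organic anions, had 5.15 and 21.1, and 6.81 and 19.2, with 14.9 and 16.5 in normal PT. Slc17a3, an anion transporter of the apical membrane, had 3.34 and 8.46, and 2.14 and 5.27. Slc22a6, the organic anion transporter OAT1 of the basolateral membrane, had the other order, with 3.59 and 2.55, and 6.09 and 1.24. Of the ABC efflux list, which also holds Slc47a1, 6 of 7 were higher in InjuredPT-B and 0 in InjuredPT-A (-0.76 and -0.72). Abcg2, an efflux pump of urate, had 2.38 and 6.04, and 1.99 and 5.03, with 4.17 and 3.50 in normal PT, and InjuredPT-B was its highest cluster in both AAI mice.

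Endocytosis genes had 7 of 15 higher in InjuredPT-B, and 3 had the other order. These, the amnionless gene Amn, the Fc receptor gene Fcgrt and Rab5a, were short, and short members had 0.29 and 0.38. Rab11fip3, an effector of recycling endosomes, had 2.65 and 7.79, and 2.15 and 6.68. Enzymes and secreted products of the tubule had 8 and 7 of 35. Kap, the androgen-regulated kidney protein gene, had 110 and 52.3, and 101 and 37.9, while Keg1, a glycine acyltransferase gene, had 13.3 and 42.9, and 11.104 and 27.7.

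Adhesion and growth signalling lists had members in both directions. Integrins, laminins and collagens had 10 of 16 higher in InjuredPT-B and 1, Itgb1, in InjuredPT-A (-0.35 and -0.41), and 11 of the 16 were long. Of these, 8 were higher in InjuredPT-B, with medians of -0.53 and -0.43, near the -0.46 and -0.54 of all long genes. Itgb6, the epithelial integrin subunit that activates TGF-beta, had 0.467 and 3.29, and 0.840 and 5.68, near the 2.78 and 5.21 of normal PT in InjuredPT-B. Junction and polarity genes had 10 of 24 higher in InjuredPT-B and 5 in InjuredPT-A. Of their 14 long members 9 were higher in InjuredPT-B, where 73.5% of all long genes were. Ctnnb1, which encodes beta-catenin, had 3.05 and 1.08, and 2.34 and 1.53. Actin genes had 7 and 7 of 24, where Rhoa and Rhoc were higher in InjuredPT-A and their effector kinases Rock1 and Rock2 in InjuredPT-B. Of the TGF-beta list, 5 of 12 were higher in InjuredPT-B and 2, the inhibitor genes Smad7 and Skil, in InjuredPT-A. Its 6 long genes had 4 higher in InjuredPT-B. Smad7 had 2.74 and 1.07, and 2.49 and 0.983, and Pdgfc, a platelet-derived growth factor ligand gene, had 0.934 and 3.91, and 0.896 and 3.92.

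In the EGF receptor list, InjuredPT-B was the higher cluster for 5 of 13 genes and InjuredPT-A for 4. Among them the ligand Nrg1 had 4.46 and 15.9, and 3.55 and 14.8, and its receptor gene Erbb4, itself 1076 kb long, had the other direction with 1.24 and 0.477, and 2.23 and 0.826. Egf, also among the thick ascending limb markers, was higher in InjuredPT-A (2.59 and 1.39, and 3.4 and 1.77). Of the feedback inhibitors, Dusp6 was higher in InjuredPT-A and Errfi1 and Spred2 in InjuredPT-B.

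Inflammation and classic injury markers were few past the filter. Of 37 cytokine, chemokine and NF-kB genes 9 passed, with 2 higher in each direction, Icam1 and Rela in InjuredPT-A and Il34 and Nfkb1 in InjuredPT-B. Icam1, a leukocyte adhesion molecule, had 2.12 and 0.628, and 1.14 and 0.589. Cxcl1, a neutrophil chemokine, differed in direction between the mice, with 4.80 and 3.75 in the control AAI mouse and 2.52 and 5.35 in the hKLF6OE AAI mouse, and both clusters stood above the 1.12 and 1.44 of normal PT. Of 5 injury markers that passed, Plin2, Itgb6 and Bmp6 were higher in InjuredPT-B and Spp1, osteopontin, in InjuredPT-A (3.00 and 1.90, and 4.86 and 2.37). Plin2, a lipid droplet coat gene, had 3.06 and 3.97, and 1.5 and 2.52, against 0.619 and 0.421 in normal PT. Havcr1, which encodes the injury marker KIM-1, and Krt20 did not pass, with Havcr1 at 0.139 and 0.270, and 0.133 and 1.26, and Krt20 at 0.0440 and 0.245, and 0.0571 and 1.34. Both were highest of all clusters in InjuredPT-B in both AAI mice. Lcn2 and Vcam1 were below 0.1 in every injured column.

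Nuclear-retained and host long noncoding RNAs had 4 of 9 higher in InjuredPT-A and 3 in InjuredPT-B. Neat1, the scaffold of paraspeckles, was higher in InjuredPT-B with 13.1 and 26, and 14.9 and 27, and so was Kcnq1ot1, the antisense RNA of the Kcnq1 locus, with 2.38 and 4.62, and 2.83 and 5.74. Neat1 is short, so its order was not that of most genes of its length. At the limit of 0.2, Ets2 (0.20 and 0.42) and Psmb5 (0.22 and 0.20) lay just inside toward InjuredPT-A, and Eif3c (0.20 and 0.24) and Ahctf1 (0.50 and 0.20) just outside. Toward InjuredPT-B, Tmem169 (-0.20 and -0.29) and Emsy (-0.37 and -0.20) lay just inside, and Glis2 (-0.20 and -0.35) and Ptbp3 (-0.26 and -0.20) just outside. In the mouse nearer to it, these 8 genes differed from the limit only past the second decimal.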

How the data were processed

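Single nuclei of kidney cortex from 4 mice, 1 per condition, were sequenced with 10x Chromium. The authors aligned reads with Cell Ranger (3.1.0) to a mouse pre-mRNA reference, so that intronic reads count, and clustered nuclei in Seurat (4.3), keeping genes found in 3 nuclei, nuclei with 200 to 6000 genes and at most 10% mitochondrial reads, at a clustering resolution of 0.8 over 30 components. Strand setting, averaging function and doublet removal are not given in the sources used here. The deposited signal is a gene's normalized expression averaged by the authors over the nuclei of 1 cluster in 1 mouse (23 clusters), and each column sums to 10000. Counts and numbers of nuclei per column were not analysed here, so the depth behind a value is unknown and no interval that needs it is given.

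Of 19632 rows, 23 with names turned into dates were left out. Differences were taken as log2(value + 1), with a minimum value of 0.5 and a limit of 0.2 in each AAI mouse. Adding 1 understates the change of low genes. A level within 0.2 of normal PT counted as near it. Spans and biotypes are from GENCODE M21 and promoters from RefSeq. Named genes were the 20 of each direction with the largest smaller difference, the 3 leading called genes of each list in each direction, 12 set genes (Polr2a, Klf6, Cxcl1, Il34, Plin2, Havcr1, Krt20, Cdkn1a, Mdm2, Vcam1, Spp1, Lcn2), the 5 widest opposite genes, and the 2 nearest the limit on either side in each direction; not all are printed. Further genes were named after their values were seen. Members and lists were chosen with earlier results of these data known. The pseudocount, minimum value, limit, centring, normal clusters, gene biotypes, mitochondrially encoded genes and each mouse were varied. Tables were handled with pandas 2.3.3 and numpy 2.4.6 under Python 3.11.15 and plots made with matplotlib 3.10.9. Some items are not reported here.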

Additional observations from a re-analysis of the deposited data

Results flagged for a closer look

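The genes with the widest opposite differences between the mice were picked out because InjuredPT-A lay below InjuredPT-B in the control AAI mouse and above it in the hKLF6OE AAI mouse. With 1 mouse each, the difference between the mice was not tested. Tnfaip8, a regulator of cell survival, had differences of -0.45 and 0.62 on the log2(value + 1) scale. Rcan1, an inhibitor of calcineurin, had -0.39 and 0.46, and Slc13a3, a sodium dicarboxylate cotransporter, had -0.48 and 0.39. Lars2, a mitochondrial leucyl-tRNA synthetase gene, had -0.38 and 0.60. Chd3, a chromatin remodeler gene, had -0.37 and 0.68. The list of cytokines, chemokines and NF-kB targets had a median of 0.29 in the control AAI mouse and -0.12 in the hKLF6OE AAI mouse over 9 genes.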

How the results depend on the processing

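No paired analysis was possible because the conditions have 1 mouse each, with no further replicates to block on, and each difference was already taken within a mouse. In each mouse alone, 1935 (38.9%) and 1874 (37.7%) genes were higher in InjuredPT-A and 1560 (31.3%) and 1746 (35.1%) in InjuredPT-B (control and hKLF6OE AAI mouse). Genes higher in InjuredPT-B and above normal PT there then numbered 362 to 612, the long share of genes higher in InjuredPT-B was 47.7% to 50.9%, and the short share of those higher in InjuredPT-A was 69.5% to 74.4%. A pseudocount of 0.1 moved 179 of the 241 list medians and gene differences by more than the spread between the mice, so the sizes printed depend on it. It gave 1924 and 1619 genes, 466 genes above normal PT in InjuredPT-B and a long share of 50.2%. Leaving out mitochondrially encoded genes gave 1568 and 1308 genes. Without a filter the short share was 77.9% and 7 lists, against 23, had medians of at least 0.2 in size, and the medians of the G2/M list (-0.00045) and the injury marker list (0.0066) turned sign. A minimum of 2 left 353 and 551 genes, with 345 above and 450 below normal PT in InjuredPT-A, 128 above it in InjuredPT-B, shares of 65.5% short and 67.0% long, and 121 of 191 named genes called. Centring on the median of each mouse gave 1338 and 1482 genes and a long share of 52.9%. A limit of 0.5 left 538 and 525 genes, with 509, 404 and 24 by the same standings, shares of 81.8% and 73.5%, and 125 named genes. A limit of 1 left 72 and 100 genes, with 72, 81 and 1, shares of 79.2% and 86.0%, and 57 named genes. The causes of these shifts were not tested. With 1 mouse per condition and the number of nuclei per column unknown, low levels are the least certain.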

Other observations

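Several genes higher in InjuredPT-A had unequal levels there in the AAI mice, which differ in the human KLF6 transgene driver and are 1 animal each. Celf2, an RNA-binding splicing factor gene, was at 0.635 in InjuredPT-A of the control AAI mouse and 8.40 in that of the hKLF6OE AAI mouse, with 0.344 and 0.992 in InjuredPT-B. Peak1, a pseudokinase gene of the cytoskeleton, was at 1.16 and 5.84 in InjuredPT-A. Zfp36, which encodes the mRNA decay factor tristetraprolin, was at 3.2 and 7.7. In the other direction, Cyp2a5, a cytochrome P450 gene, was at 2.35 and 0.534. These genes were chosen for the gap after their values were seen.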
